A study of Mus musculus with 4 samples.

Results

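The 10 genes described here encode the mouse receptor for bacterial lipopolysaccharide (LPS) and the proteins that work directly with it. They were taken by symbol from a deposited table of 55401 genes, and all 10 passed the filter on low counts that left 17260 genes for testing. Tlr4, the receptor itself, was chosen by its counts and FPKM in these 4 libraries, since it stood higher in the knockouts, so its difference is given as a description with no test. The other 9 genes were taken for their known role beside Tlr4, with earlier results of these data known. The question asked of them is whether the higher level of Tlr4 extends to them.

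The RNA came from bone marrow-derived macrophages of 8-week C57BL/6 mice, grown with M-CSF, the growth factor that turns marrow precursors into macrophages. Every culture shared its dish with MC38 cells for 24 h; MC38 is a line from a mouse colon carcinoma. The knockout group (LysM-cre, Mettl3fl/fl) had 2 libraries, numbered 1 and 3 in the labels, and the control group (Mettl3fl/fl, with the floxed alleles and no driver) had 2 with the same numbers. The driver lies in the lysozyme gene Lyz2 and acts in myeloid cells. Controls carried no LysM-cre, so an effect of the driver and an effect of losing Mettl3 cannot be told apart. Mettl3 is the catalytic subunit of the enzyme that writes N6-methyladenosine (m6A) on mRNA. The design text calls the libraries biological replicates; the labels used here do not tell whether one pooled several mice.

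Total counts lay between 55100415 and 79209870 per library. Mettl3 stood at 13.9 and 19.6 CPM (each count relative to its library total, TMM-scaled) in the knockouts, against 18.3 and 23.2 CPM in the controls, so the groups overlapped, while the knockout was the lower library within both numbers (0.758-fold and 0.844-fold); the deleted exons are not named, and a count over the whole gene does not check the labels. Libraries of equal number lay closer to each other than those of equal genotype: the root mean square log2 distance was 0.857 for number 1 and 0.92 for number 3, against 1.14 between the knockouts and 1.11 between the controls. The Y-linked Ddx3y was high and Xist low in both libraries numbered 1, and the reverse held in both numbered 3 (both named after seeing their values), so library number and sex of the cells coincide and cannot be told apart. For this reason each pooled difference is followed by the difference at equal number where it adds something. All 10 macrophage markers, among them Adgre1 and Csf1r, had counts in every library. Of 8 epithelial markers, Epcam, Krt8, Krt18, Cldn4 and Krt20 were at 0 in all 4 libraries, and the summed level of the 8 was 1.33 and 0.910 CPM in the knockouts against 0.460 and 0.953 CPM in the controls.

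LPS is sensed in steps. Cd14, anchored in the outer membrane leaflet, takes up LPS and hands it to Ly96 (MD-2), a small secreted protein that sits on the ectodomain of Tlr4 and holds the lipid. The loaded receptor then signals through its TIR domain by 2 pairs of adaptors: Tirap with Myd88 at the plasma membrane, leading to NF-kB and inflammatory cytokines, and Ticam2 (TRAM) with Ticam1 (TRIF) in endosomes, leading to type I interferon. Cd180 (RP105) resembles the ectodomain of Tlr4 but lacks a TIR domain, and pairs with Ly86 (MD-1), a relative of Ly96; in macrophages this pair is known to restrain Tlr4. Irak3 (IRAK-M) is a kinase-like protein that restrains signalling below Myd88.

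Tlr4 (ENSMUSG00000039005, chromosome 4, 66827584 to 66930284, plus strand) had 10686 and 8766 counts in knockouts 1 and 3, against 1254 and 745 counts in controls 1 and 3. Scaled for library size, this was 170.9 and 110.7 CPM in the knockouts and 23.09 and 12.03 CPM in the controls. Both knockouts lay far above both controls, and the lower knockout was above the higher control by more than the distance between the 2 libraries of either group. Per length, Tlr4 averaged 22.7 ± 7.00 FPKM (the authors' values, scaled for gene length and library size) in the knockouts and 2.83 ± 1.22 FPKM in the controls (SD, n = 2 each). The log2 fold change was 3.00 ± 0.43 (SE, edgeR), 8.02-fold. The difference was of like size in both numbers, 7.38-fold within number 1 and 9.14-fold within number 3. Ordered by log2 fold change, Tlr4 ranked 53 of the 17260 tested genes. The deposited FPKM and counts gave nearly the same fold (8.03 from mean FPKM). For Tlr4, the count divided by its library total and then by the FPKM differed by only 0.982% between the libraries. The FPKM column is therefore no second measurement.

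The co-receptors stood near their control levels. Cd14 (ENSMUSG00000051439, chromosome 18, 36725067 to 36726798, minus strand) had the highest FPKM of the 10 genes in every library, at 621.4 and 576.0 FPKM in knockouts 1 and 3 against 784.6 and 481.5 FPKM in controls 1 and 3. The controls enclosed the knockouts, and its log2 fold change came to -0.08 ± 0.30 (SE; edgeR, adjusted p = 1.0). Within the numbers Cd14 differed in sign, at -0.35 within number 1 and 0.29 within number 3. Ly96 (ENSMUSG00000025779, chromosome 1, 16688051 to 16709611, plus strand) stood at 11.1 and 16.3 FPKM in knockouts 1 and 3 and at 10.7 and 15.8 FPKM in controls 1 and 3. Its values followed the library number and not the genotype: its log2 fold change came to 0.06 ± 0.32 (SE; edgeR, adjusted p = 1.0), with 0.02 at number 1 and 0.08 at number 3. The 95% interval of the fold reached up to 1.64 for Cd14 and 1.88 for Ly96, in the fit without a block for library number. A fit with library number as a block gave log2 fold changes of -0.03 ± 0.20 (SE) for Cd14 and 0.05 ± 0.17 (SE) for Ly96. Ly96 also had the lowest count of any of the 10 genes, 671 in control 1.

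**Figure D1:**
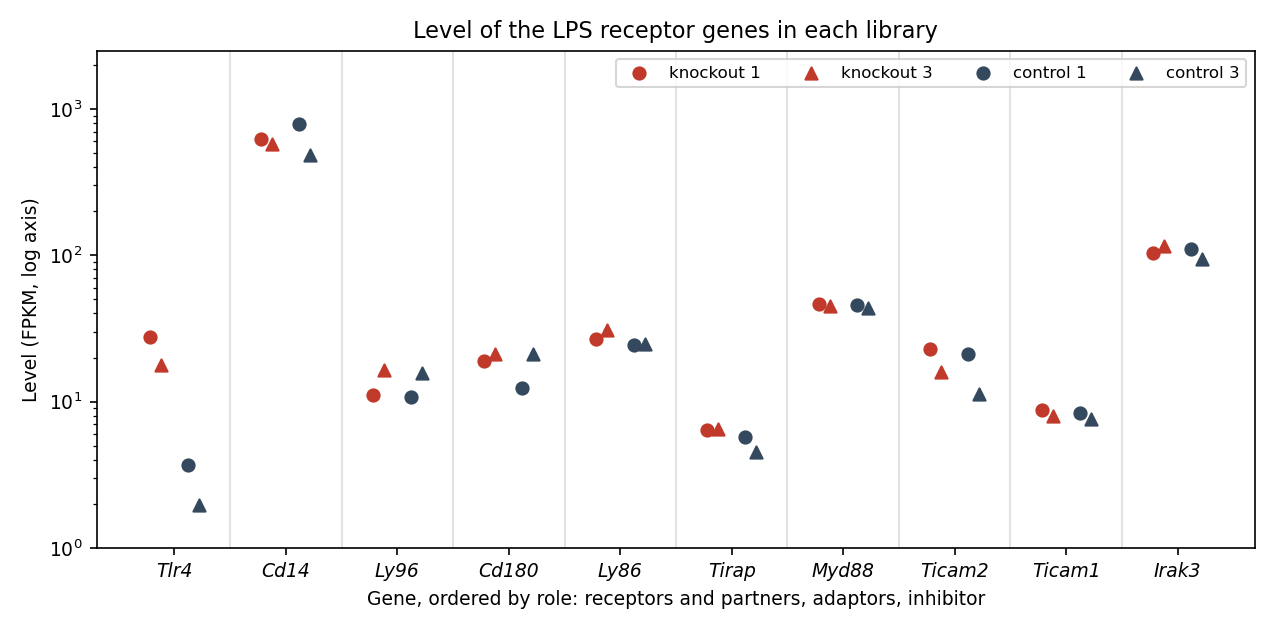
Level of each gene in FPKM (log axis) in the 2 knockout libraries (red, left in each column) and the 2 control libraries (dark, right); circles are libraries numbered 1 and triangles those numbered 3. Tlr4 stood at 27.7 and 17.8 FPKM in the knockouts against 3.69 and 1.97 FPKM in the controls, while the groups overlapped or lay close together for the other 9 genes.

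The inhibitory pair Cd180 and Ly86 stood slightly higher in the knockouts, within the error of the test. Cd180 (ENSMUSG00000021624, chromosome 13, 102693558 to 102739629, plus strand) had 19.0 and 21.1 FPKM in knockouts 1 and 3, against 12.3 and 21.1 FPKM in controls 1 and 3. The groups overlapped because control 3 was as high as knockout 3; the log2 difference was 0.60 at number 1 and 0.03 at number 3, and the fit gave 0.27 ± 0.28 (SE; edgeR, adjusted p = 1.0). Ly86 (ENSMUSG00000021423, chromosome 13, 37345208 to 37419036, plus strand) had 26.7 and 30.7 FPKM in the knockouts, against 24.2 and 24.8 FPKM in the controls. Both knockouts were above both controls for Ly86, and its log2 fold change came to 0.24 ± 0.15 (SE; edgeR, adjusted p = 1.0), with 0.13 at number 1 and 0.34 at number 3.

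Of the adaptors of the plasma membrane pair, Tirap had the largest difference of the 9 partners. Tirap (ENSMUSG00000032041, chromosome 9, 35184551 to 35200291, minus strand), which recruits Myd88 to the receptor, stood at 6.36 and 6.52 FPKM in the knockouts, against 5.69 and 4.54 FPKM in the controls. Both knockouts were above both controls, and its log2 fold change came to 0.34 ± 0.20 (SE; edgeR, adjusted p = 1.0), with 0.14 at number 1 and 0.55 at number 3. Myd88 (ENSMUSG00000032508, chromosome 9, 119335934 to 119340041, minus strand), the adaptor shared by most Toll-like receptors, had the smallest standard error of the 9 partners. It had 46.8 and 45.2 FPKM in the knockouts and 45.4 and 43.8 FPKM in the controls, a log2 fold change of 0.05 with a 95% interval of -0.32 to 0.43.

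Of the endosomal pair, Ticam2 (ENSMUSG00000056130, chromosome 18, 46557291 to 46574533, minus strand) had 23.0 and 16.0 FPKM in knockouts 1 and 3, against 21.1 and 11.2 FPKM in controls 1 and 3. Libraries numbered 1 were higher in both groups, and the groups overlapped. Its log2 fold change, 0.28 ± 0.38 (SE; edgeR, adjusted p = 1.0), had the widest error of the partners in this fit, which had no block for library number. The values at equal number were 0.11 at number 1 and 0.55 at number 3. A fit with library number as a block gave 0.33 ± 0.16 (SE), and there the error of Ticam2 was not the widest. Ticam1 (ENSMUSG00000047123, chromosome 17, 56269319 to 56276786, minus strand), which links Ticam2 to interferon induction, had 8.70 and 7.95 FPKM in the knockouts and 8.37 and 7.60 FPKM in the controls. Its log2 fold change was 0.07 with a 95% interval of -0.41 to 0.55, and the values at equal number were 0.04 and 0.10.

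Irak3 (ENSMUSG00000020227, chromosome 10, 120141648 to 120202130, minus strand) was second only to Cd14 in FPKM in each library. It stood at 102.8 and 115.9 FPKM in knockouts 1 and 3 and at 110.8 and 95.0 FPKM in controls 1 and 3. The groups overlapped, with a log2 difference of -0.12 at number 1 and 0.32 at number 3; the fit gave 0.10 with a 95% interval of -0.40 to 0.59.

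Over the 9 partners, edgeR called 0 genes at an adjusted p under 0.05, against 0 of all 17260 tested genes (0.0%). At an unadjusted p under 0.05 there were also 0 partners, against 391 tested genes (2.27%), and DESeq2 called 0 partners. DESeq2 called Tlr4, against 73 of 19234 genes with an adjusted p (0.38%) and 42 of them higher in the knockouts (0.218%); as Tlr4 was chosen for this difference, nothing is read from that call. The partners had a median log2 fold change of 0.10 and a range of -0.08 to 0.34, beside a median of 0.00 over all tested genes. Their unadjusted p ranged from 0.159 to 0.861 (edgeR), and 8 of the 9 lay above 0, beside 49.8% of all tested genes. Both knockouts were above both controls for 2 partners, Ly86 and Tirap (22.2%), against 13.1% of all tested genes. Both knockouts were below both controls for 0 partners, against 13.4% of tested genes. The highest upper bound of any partner's 95% interval was 2.42-fold, for Ticam2, in the fit without a block for library number. Leaving out 1 library turned the sign of Cd14 and Cd180 (control 1), Ly96 (knockout 3 or control 1), Ticam2 and Ticam1 (control 3) and Irak3 (knockout 3 or control 3), with values between -0.40 and 0.83, while Tlr4 stayed between 2.61 and 3.55. The difference between the change of Tlr4 and that of a partner was not itself tested. With 2 libraries a group, an exact two-sided permutation test cannot go below p = 0.33. The 2 libraries of each group differed in Ddx3y and Xist, so they did not come from 1 mouse. The spread between them may hold this sex difference as well as technical variation.

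**Figure D2:**
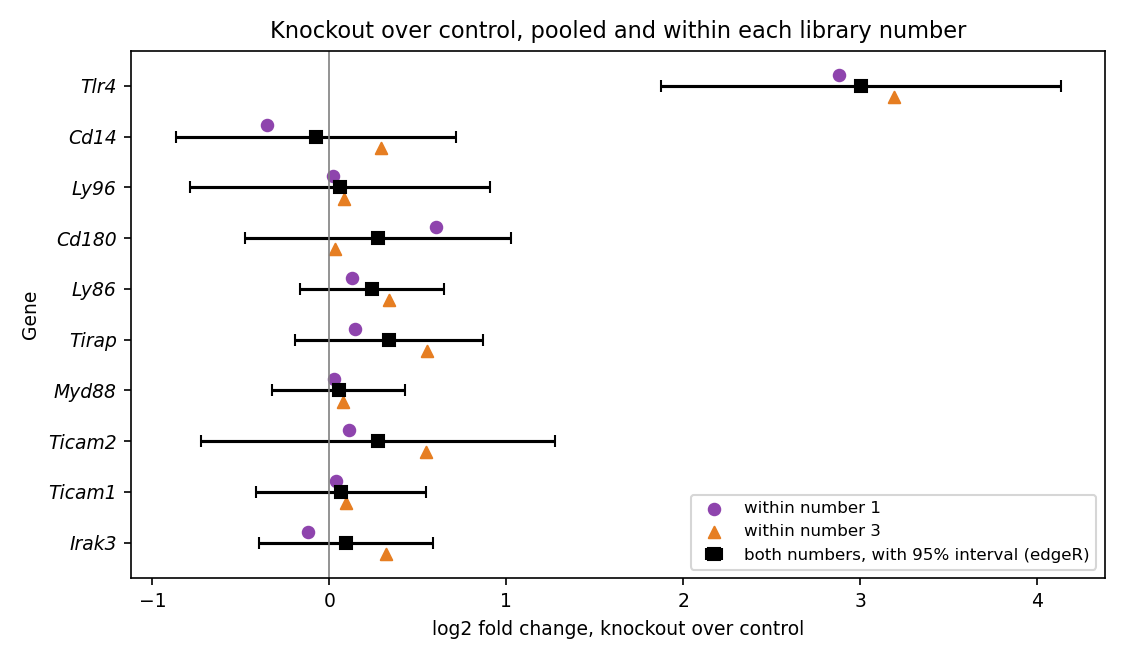
Log2 fold change, knockout over control, for each gene: black squares are the edgeR fit to all 4 libraries with its 95% interval, purple circles the difference within number 1 and orange triangles that within number 3. Tlr4 lies at 2.88 within number 1 and 3.19 within number 3; all 9 partners have intervals that include 0.

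The order of the genes by FPKM restates the difference in Tlr4 and adds no evidence of it, since Tlr4 was chosen by its level in these libraries. Tlr4 was the lowest of the 10 genes in both controls, below Tirap, and stood in position 4 in knockout 1 and position 6 in knockout 3. Cd14, Irak3 and Myd88 held positions 1, 2 and 3 in each of the 4 libraries. Ly86 came below Myd88, and its range over the libraries did not reach that of the next partner. Cd180, Ticam2 and Ly96 followed with ranges that overlapped one another, and Ticam1 and Tirap lay below those, apart from each other. Ly96 transcript stood at 0.399 and 0.919 times the FPKM of Tlr4 in knockouts 1 and 3, against 2.91 and 8.00 times in controls 1 and 3. Cd14 stood at 22.4 and 32.4 times Tlr4 in the knockouts and at 212.0 and 244.0 times in the controls. Each of these ratios has Tlr4 below the line, so the shift repeats the difference in Tlr4 and is no further evidence of it. These are transcript levels, and protein at the cell surface was not measured.

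**Figure D3:**
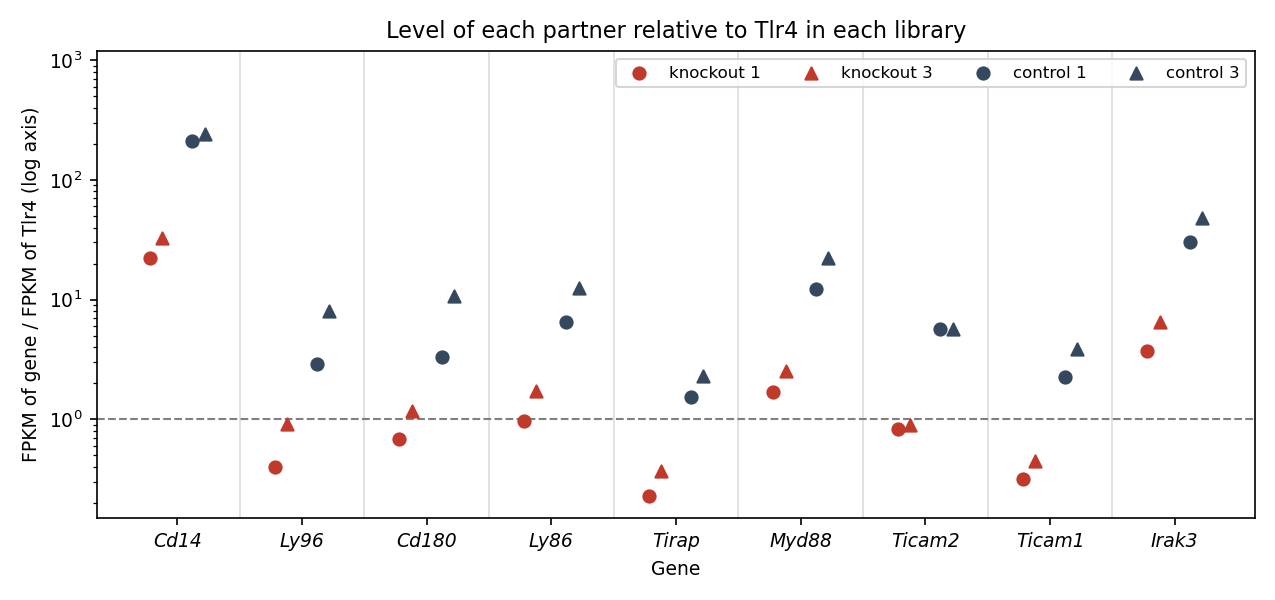
FPKM of each partner divided by the FPKM of Tlr4 in the same library (log axis), with knockouts in red on the left and controls dark on the right of each column; the dashed line marks equal FPKM. Ly96, Tirap, Ticam2 and Ticam1 lie below the line in both knockouts (0.399 and 0.919 for Ly96) and above it in both controls (2.91 and 8.00 for Ly96).

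Several members differed between library numbers in both genotypes. Given as number 3 minus number 1 on the log2 scale, Tlr4 differed by -0.63 among knockouts and -0.94 among controls. Ticam2 differed by -0.51 among knockouts and -0.94 among controls, and Ly96 by 0.57 and 0.51 in the opposite direction. For Tlr4 this is small beside the difference between genotypes, and for Ticam2 and Ly96 it is larger than that difference. Each value compares a pair of single libraries and has no replicate check.

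Some counts may include reads from neighbouring genes. Tlr4, Cd14, Ly96, Ly86 and Ticam1 overlap no other gene of the table. Ticam2 overlaps Tmed7 on the same strand, a cargo receptor that stood at 164.5 and 190.2 CPM in the knockouts and 169.0 and 170.5 CPM in the controls, so reads could be split between them. Tirap overlaps Srpr, Myd88 overlaps Acaa1a, Irak3 overlaps Tmbim4 and Cd180 overlaps Mast4 on the opposite strand. Myd88 also overlaps Slc22a14 on its own strand, which had 0 counts in all 4 libraries. The library kit marks the strand, but no source used here tells whether counting used it, and these values are uncertain to that extent.

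The tested genes nearest to Tlr4 on the chromosome did not differ as it did. The table lists 7 other genes within 1000000 bases of Tlr4, of which 0 had enough counts to test. The nearest tested genes were Pappa and Trim32 before it and Gm11249 and Brinp1 after it, the nearest of them 1000597 bases away. Trim32, a ubiquitin ligase, stood at 16.8 and 16.2 CPM in the knockouts against 19.0 and 19.0 CPM in the controls, a log2 fold change of -0.20. Pappa, a secreted protease, had a log2 fold change of 0.01 and Gm11249, a predicted gene, one of -0.42. Brinp1 had only 12 and 9 counts in knockouts 1 and 3, against 0 and 34 counts in controls 1 and 3. None of the 4 passed edgeR (adjusted p = 1.0 each).

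The genes whose pattern over the 4 libraries was nearest to that of Tlr4 were scarce transcripts. By distance between centred log2 CPM values they were Misp, H4c11, Htra4, Mir27b and Lbx2, at distances of 0.587 to 0.826, where the median tested gene lay at 3.20. None of the 5 had more than 34 counts in a library, and Htra4, H4c11 and Lbx2 had 0 counts in both controls. Among genes with a mean of at least 10 CPM (a minimum chosen after the values were seen), the nearest were Rps3a2, Dram1, Smim15, Ifi47 and Fbxo33, at distances of 0.926 to 1.54. Rps3a2 is a copy of a ribosomal protein gene, and its reads may be split with the parent. Dram1, which takes part in autophagy, had a log2 fold change of 1.82, with 1.66 at number 1 and 2.03 at number 3 (edgeR, adjusted p = 1.0). These genes were picked for nearness to Tlr4 in the same libraries. Their higher level in the knockouts follows from that choice and is no further evidence. The nearest partner was Ticam2, at a distance of 2.72 and rank 1422, followed by Tirap at 2.77 and Ly96 last at 3.27.

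The rest of the pathway was described by lists drawn up by role. Over 7 lists (other Toll-like receptors, LPS handling, Tlr4 trafficking, the Myd88 branch, the Ticam1 branch, inhibitors and macrophage transcription factors), 89 of 92 genes were tested and edgeR and DESeq2 each called 0. The shares called over all genes were 0.0% for edgeR and 0.38% for DESeq2. At an unadjusted p under 0.05 edgeR gave 2 genes, 2.25% of them, beside 2.27% of all tested genes. The medians of the 7 lists lay between -0.12 and 0.14. Both knockouts were above both controls for 15.7% of the 89 genes and below them for 8.99%, beside 13.1% and 13.4% of all tested genes.

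Among the other Toll-like receptors, 9 were tested and 7 lay above 0, beside 49.8% of all tested genes. Their median log2 fold change was 0.14, with -0.07 at number 1 and 0.24 at number 3. Tlr2, the receptor for bacterial lipoproteins, stood at 512.8 and 633.8 CPM in knockouts 1 and 3 and at 651.5 and 393.1 CPM in controls 1 and 3, so the groups overlapped. Tlr8 stood at 286.8 and 332.4 CPM in the knockouts and 312.3 and 250.5 CPM in the controls, again overlapping. The log2 fold changes of the 9 ran from -0.50 for Tlr5 to 0.39 for Tlr7 (both named after seeing their values), beside 3.00 for Tlr4.

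EdgeR and DESeq2 called 0 of the genes that handle LPS or carry Tlr4. Over all genes, edgeR called 0.0% of those tested and DESeq2 0.38% of those with an adjusted p. The LPS handling list had 11 tested genes with a median of -0.06 and a range of -0.72 (Alpl, named after seeing its values) to 0.24. The groups overlapped for all 11. Of all tested genes, 13.1% had both knockouts above both controls and 13.4% had both below. Itgam and Itgb2, the chains of complement receptor 3, had log2 fold changes of 0.24 and 0.09. The trafficking list had 15 tested genes with a median of 0.05 and a range of -0.38 (Rab11fip2) to 0.42 (Pik3cd; both named likewise). Pik3cd was the 1 gene with both knockouts above both controls (6.67%, beside the 13.1% of all tested genes). Hsp90b1, the endoplasmic reticulum chaperone that folds Toll-like receptors, stood at 873.8 and 1161 CPM in the knockouts and 787.7 and 892.6 CPM in the controls, a log2 fold change of 0.28. Cltc, the clathrin heavy chain of endocytosis, had one of 0.12.

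Downstream of the adaptors, the Myd88 branch had 16 tested genes with a median of -0.02, 7 above 0 and 9 below. Tab2, which brings the kinase Map3k7 to ubiquitin chains, had a log2 fold change of -0.17, and the kinase Btk had one of 0.05. The Ticam1 branch had 12 tested genes with a median of 0.13, and 10 lay above 0, beside 49.8% of all tested genes. Both knockouts were above both controls for 4 of the 12 (33.3%), beside 13.1% of all tested genes. These were Tbk1, Ripk1, Casp8 and Irf7 (the first 2 and the last named after seeing their values). Irf7, itself induced by interferon, had the largest log2 fold change of the branch, 0.75 (edgeR, adjusted p = 1.0), and the abundant kinase Ikbke had one of 0.12. The inhibitors had 18 tested genes with a median of 0.03. The abundant Ptpn6 and Lyn had log2 fold changes of 0.16 and 0.28. The 2 genes of the 7 lists with an unadjusted p under 0.05 were inhibitors, Trafd1 and Trim30a (named after seeing their values). Trim30a stood at 272.0 and 370.5 CPM in the knockouts and 203.0 and 184.0 CPM in the controls, and both genes are known to be induced by interferon. Socs1, an inhibitor of cytokine signalling (named likewise), had the largest difference of that list, at 0.208 and 1.18 CPM in knockouts 1 and 3 and 6.26 and 1.39 CPM in controls 1 and 3. Both knockouts were below both controls, with 1 control far above the other (log2 fold change -2.46; edgeR, adjusted p = 1.0). Among macrophage transcription factors, Spi1 (PU.1), a master factor of the myeloid lineage, had a log2 fold change of -0.02.

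Genes that LPS is known to induce were taken as targets of the pathway. The 16 tested targets that depend mainly on Myd88 had a median log2 fold change of 0.00, 8 above 0 and 8 below. At equal number the median was -0.39 for number 1 and 0.42 for number 3, so the sign differed between the numbers. Saa3, an acute-phase protein, stood at 20960 and 19270 CPM in knockouts 1 and 3 and at 19060 and 7849 CPM in controls 1 and 3, a gap made mainly by control 3. Il1b, an inflammatory cytokine, stood at 1540 and 1239 CPM in knockouts 1 and 3 and 2213 and 891.1 CPM in controls 1 and 3, and the groups overlapped. The 12 tested targets that depend mainly on Ticam1 and interferon all lay above 0, and their median was 1.59, with 1.13 at number 1 and 1.84 at number 3. Both knockouts were above both controls for all 12, beside 13.1% of all tested genes. EdgeR called 0 of the 12 (0.0% of all tested genes) and had 9 at an unadjusted p under 0.05, beside 2.27% of all tested genes. DESeq2 called 6 of the 12, beside 0.38% of all genes with an adjusted p. Ifit3, an antiviral protein, stood at 93.4 and 171.9 CPM in the knockouts, against 41.6 and 38.1 CPM in the controls. Isg15, a ubiquitin-like antiviral protein, stood at 49.2 and 120.0 CPM in the knockouts, against 24.5 and 29.5 CPM in the controls. Ifnb1, the interferon gene that Tlr4 can induce through Ticam1, had 0 counts in all 4 libraries. The interferon genes were already known to stand higher in these libraries, so this list is no independent support, and whether it relates to Tlr4 was not tested.

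**Figure D4:**
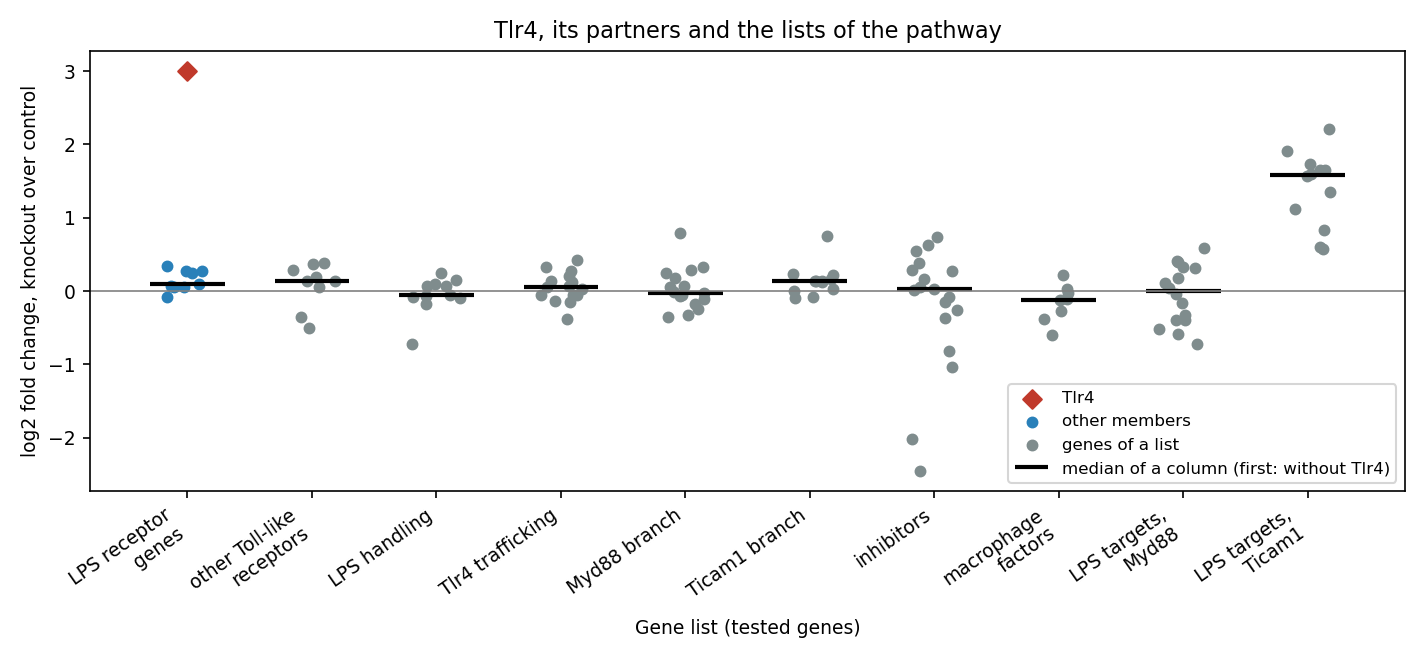
Log2 fold change, knockout over control (edgeR), of Tlr4 (red diamond), its 9 partners (blue) and the tested genes of 9 pathway lists (grey), with the median of each column as a black bar. Tlr4 lies at 3.00, the partners between -0.08 and 0.34, and the interferon targets of the Ticam1 branch have a median of 1.59.

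Some of the 10 genes are used by other cells too, so markers of other types are given beside them. The summed level of 8 dendritic cell markers was 15.1 and 31.4 CPM in knockouts 1 and 3 and 11.8 and 17.2 CPM in controls 1 and 3, with Cd209a at 0 in all. Most of this sum came from Itgax in each library. Of 8 B cell markers, Cr2 was at 0 in all libraries, and the summed level was 10.3 and 2.70 CPM in the knockouts against 5.52 and 3.07 CPM in the controls, nearly all from Cd79b. The 8 neutrophil markers summed to 19.6 and 26.8 CPM in the knockouts and 14.8 and 18.6 CPM in the controls, with Ly6g and Cxcr2 at 0. Most of this sum came from S100a8, while S100a9 had 0 counts in both libraries numbered 1. Mast cell and basophil markers (6) summed to at most 2.73 CPM, and Fcer1a and Tpsb2 were at 0. T and NK cell markers (7) summed to 25.0 and 23.5 CPM in the knockouts and 17.2 and 24.0 CPM in the controls, nearly all from Cd4, with Cd3e and Cd8a at 0. The 7 fibroblast markers summed to 327.4 and 492.2 CPM in the knockouts and 418.8 and 795.2 CPM in the controls. All 7 had a log2 fold change below 0, where 49.8% of all tested genes lay above 0. The groups overlapped in CPM for each of the 7, where 13.4% of all tested genes had both knockouts below both controls. The part of these cells in the level of Tlr4 was not tested; in a bulk sample, more cells of a type and more RNA per cell cannot be told apart.

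Sequence features were looked at because Mettl3 acts on mRNA and because the interferon targets stood higher. In the longest coding transcript of each gene (GENCODE M21), the letters GGACT, the commonest form of the m6A consensus, were counted on the transcript strand. Tlr4 held 6 in 4077 bases, or 1.47 per kilobase, at percentile 73.1 of the 13307 tested genes with a coding transcript, whose median was 1.05. Among the partners the density ran from 0.0 in Ly96 and 0.714 in Ticam2 to 2.04 in Myd88 and 2.44 in Cd14. No m6A was measured, and a match is not a methylated site.

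RefSeq promoter windows (GRCm38.p6, 250 bases before to 50 after a start) were at hand for 6 of the 10 genes: Cd180, Ly86, Tirap, Myd88, Ticam1 and Irak3. The letters GAAA, any 2 bases and again GAAA, a form of the element bound by interferon regulatory factors, were searched on both strands, as were the other motifs here. They were found in the windows of 1 gene of the 6, Myd88, and in 3.44% of all 32851 windows. GAGGAA, a form of the site of Spi1, was found in those of Irak3 and Ticam1 and in 28.3% of all windows. The letters GGGA, any 1 base and TTTCC, a form of the NF-kB site, were found in none of the 6 genes and in 0.411% of all windows. The part of the Myd88 window outside the annotated gene, chr9:119340042-119340268 on the minus strand, is shown because it holds the interferon-type letters in a gene that stood at 1.04-fold while the interferon targets stood higher. It reads 5′ to 3′ as below, with the match in capitals, and the match ends 30 bases before the RefSeq start.
Myd88: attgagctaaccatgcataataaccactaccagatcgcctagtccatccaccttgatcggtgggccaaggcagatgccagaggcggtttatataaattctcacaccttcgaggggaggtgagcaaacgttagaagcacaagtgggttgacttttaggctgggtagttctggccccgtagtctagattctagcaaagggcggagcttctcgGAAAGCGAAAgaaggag
A match in a window describes its letters and does not show that a factor binds there.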

How the data were processed

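Poly(A) RNA libraries made with dUTP, which marks the strand, were read as pairs, per the labels' protocols. Cutadapt 1.9, HISAT2 2.0.4 and StringTie 1.3.4d, and edgeR and DESeq2 without a version, are named in the submitters' processing notes; the genome build and the strand setting of the counting are not given in the sources used here. Per gene and library, the authors deposited an estimated count (whole numbers, not normalized) and an FPKM value, per the file headers. A further 4 columns, under 2 names matching no sample, were not used, and whether they hold separate libraries is not known. Coordinates are the deposited ones; start and end matched GENCODE M21 (GRCm38) for 94.2% of 55141 identifiers found in both.

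The estimated counts, already whole, were tested over 17260 genes with edgeR 4.0.16 (quasi-likelihood, TMM, filterByExpr, no block, two-sided, Benjamini-Hochberg; R 4.3.3), adjusted over all genes. Each SE given with an edgeR value was derived as the absolute log2 fold change divided by the square root of the F statistic. The 95% intervals use this SE and the t distribution with the degrees of freedom of the test. CPM use TMM-scaled library sizes, and within-number differences add 0.1 CPM. About 39.1% of counts from 1 to 24 were multiples of 4, so a read pair may have given several counts and the number of fragments is not known. The level of 12 counts was 0.152 to 0.221 CPM. Scripts were tested on simulated data. DESeq2 1.42.0, limma 3.58.1 on log2(FPKM + 1) and log2(FPKM + 0.1), other scalings, no filter, counts divided by 4, a replicate block and omission of each library were the alternatives.

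Genes named were the 10 members, the 2 genes of highest mean FPKM per list, the 2 nearest tested genes on each side of Tlr4, and the 5 tested genes nearest in pattern, predicted symbols left out; others are marked, and 2 genes are not reported here. The members and lists were chosen with earlier results of these data known.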

Additional observations from a re-analysis of the deposited data

Results flagged for a closer look

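The difference between knockout and control had opposite signs within the 2 library numbers for Cd14 and Irak3. Cd14 stood at 1195 CPM in knockout 1 against 1525 CPM in control 1, and at 1118 CPM in knockout 3 against 914.1 CPM in control 3, and its log2 difference was larger by 0.641 within number 3 than within number 1. Irak3 stood at 419.6 CPM in knockout 1 against 457.1 CPM in control 1, and at 477.5 CPM in knockout 3 against 382.8 CPM in control 3, with a gap of 0.442 on the log2 scale. Each number holds 1 library of each genotype, so the difference between numbers was not tested, and number coincides with the sex pattern of the cells.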

How the results depend on the processing

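Tlr4 kept its direction in all 12 alternatives, with a log2 fold change from 2.61 to 3.55 when each library was left out in turn; leaving out 1 library mixes number with genotype. DESeq2 called it (log2 fold change 3.01) and no other member, beside 73 of 19234 genes with an adjusted p (0.38%). As Tlr4 was chosen for this difference, nothing is read from its call or its kept direction. With all 4 libraries, edgeR called 0 genes under every scaling, filter and block, and limma on FPKM also called 0. The partners, uncalled throughout, had a median between 0.01 and 0.24 in the omissions, and Ly86, Tirap and Myd88 lay above 0 in all 12. The sign turned for Cd14 without control 1 (-0.399 to 0.346 over the omissions), for Ly96 without knockout 3 or control 1 (-0.258 to 0.341), for Cd180 without control 1 (-0.04 to 0.689), for Ticam2 without control 3 (-0.122 to 0.829), for Ticam1 without control 3 (-0.017 to 0.163), for Irak3 without knockout 3 or control 3 (-0.027 to 0.236), for the median of the Myd88 branch without knockout 1 or control 3 (-0.104 to 0.104), and for that of the inhibitors without knockout 3 or control 1 (-0.057 to 0.147); fewer samples entered each of these fits, and the cause was not tested. The median of the Myd88 targets ran from -0.433 to 0.255 over the omissions, and the 12 interferon targets lay above 0 in all 12 alternatives. Scaling by library totals added Myd88 to the genes with both knockouts above both controls (4 in place of 3). Libraries of equal number deviated together (r = 0.419), but the labels give the number no meaning; with the replicate block Tlr4 stood at 3.045 and 0 genes were called.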
